A study of Mus musculus with 2 samples.

Results

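This report describes 9 crystallin genes (Cryaa, Cryab, Cryba1, Cryba2, Cryba4, Crybb1, Crybb2, Crybb3 and Crygs) and the small heat shock protein gene Hspb1 in single cells of the mouse retina. The 10 genes were taken by symbol from the 31053 genes of the files, with no rule on their levels. They were chosen with earlier results of these data known. The mice were wild type C57BL/6, and at postnatal day 17 the retinas of 6 mice a group were combined. Cells caught with beads against CD11b, a surface protein of myeloid cells, were then sequenced in droplets. One library came from control mice, and the other from mice with retinopathy caused by oxygen (oxygen-induced retinopathy, OIR): pups are kept in 75% oxygen between days 7 and 12, lose retinal capillaries and, back in room air, have a retina short of oxygen. Each group is 1 library of pooled animals, so no difference below has a replicate check, and no test was made.

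Crystallins are the main soluble proteins of the lens. The alpha crystallins Cryaa and Cryab are small heat shock proteins, chaperones that bind unfolding proteins, and share this family with Hspb1, while the beta and gamma crystallins (Cryba, Crybb and Cryg genes) form a separate family of structural proteins. Several crystallins are also made outside the lens, and Cryab is known in glia, muscle and the retinal pigment epithelium. Heat shock factors and Maf proteins, transcription factors that drive stress and lens genes, are among their known regulators.

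UMIs (unique molecular identifiers) count RNA molecules, and totals were 50081145 over 10826 control barcodes and 49773742 over 7283 OIR barcodes. After filtering, 8582 control and 6136 OIR cells were kept, with median depths of 1654 and 2810 UMIs, and 89 barcodes occurred in both libraries. The samples are labelled as microglia, yet myeloid cells, which carried P2ry12, Tmem119 and other myeloid markers, were 881 control cells (10.3%) and 779 OIR cells (12.7%). Rod-like cells numbered 6594 and 3559, cone-like cells 289 and 599, bipolar-like cells 268 and 475, and cells like Müller glia, the radial glia of the retina, 263 and 402. Smaller classes were pigment epithelium-like (28 and 42), amacrine- or horizontal-like (77 and 32), vessel-like (47 and 16) and erythroid-like cells (7 and 35). A deep cluster with a median of 21370 UMIs that mixed markers of rods and cones stayed unnamed (128 and 197). Levels are given in CPM, the UMIs of a gene relative to all UMIs of the class in its library on the usual counts-per-1000000 scale, with 95% intervals that cover counting error only. CPM is not per length, so levels are compared between cells and not between genes.

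Of the 10 genes, 5 reached 20 CPM in some class of a library: Cryab, Cryba4, Crybb1, Crybb3 and Hspb1. Each of these had its own pattern over cell classes. Cryab lay in Müller glia-like and pigment epithelium-like cells, Crybb1 and Cryba4 in myeloid cells, Crybb3 in a few amacrine- or horizontal-like cells and, at low levels, in Müller glia-like and vessel-like cells, and Hspb1 in vessel-like cells. The other 5, Cryaa, Cryba1, Cryba2, Crybb2 and Crygs, had fewer than 30 UMIs in each whole library.

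The sequences just before the start sites of the 3 beta crystallins that were measured are shown, since Crybb1 and Cryba4 were found in the same cell classes. On chromosome 5 of build GRCm38, Cryba4 (ENSMUSG00000066975, 112246493 to 112252518, minus strand) and Crybb1 (ENSMUSG00000029343, 112255815 to 112269585, plus strand) lie head to head with 3297 bases between their starts. Crybb3 (ENSMUSG00000029352, 113075839 to 113081584, minus strand) lies on the same chromosome beside Crybb2 (ENSMUSG00000042240, 113058258 to 113070117, minus strand), with 5722 bases from the end of Crybb3 to the start of Crybb2, both read on the minus strand. The 250 bases upstream of each start, from RefSeq on build GRCm38.p6, are written 5′ to 3′ on the strand of the gene, with the Maf half-site TGCTGA, on either strand, in capitals. They come from chr5:112255570-112255819 (plus strand), chr5:112252519-112252768 (minus) and chr5:113081585-113081834 (minus).
Crybb1: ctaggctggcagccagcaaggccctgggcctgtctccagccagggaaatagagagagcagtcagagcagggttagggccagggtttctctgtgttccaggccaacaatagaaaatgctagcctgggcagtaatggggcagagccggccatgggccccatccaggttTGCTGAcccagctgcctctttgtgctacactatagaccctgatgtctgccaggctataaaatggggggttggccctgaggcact
Cryba4: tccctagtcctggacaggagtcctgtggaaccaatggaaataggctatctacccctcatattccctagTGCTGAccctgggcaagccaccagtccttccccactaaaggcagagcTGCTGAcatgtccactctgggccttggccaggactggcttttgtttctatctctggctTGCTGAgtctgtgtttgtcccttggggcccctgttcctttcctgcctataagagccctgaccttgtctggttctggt
Crybb3: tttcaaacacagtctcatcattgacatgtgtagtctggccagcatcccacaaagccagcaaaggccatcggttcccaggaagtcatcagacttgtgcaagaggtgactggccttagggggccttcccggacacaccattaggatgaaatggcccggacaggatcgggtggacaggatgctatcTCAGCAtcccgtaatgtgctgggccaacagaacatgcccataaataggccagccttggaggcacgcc
The half-site occurred once before Crybb1, 84 bases upstream of the start, 3 times before Cryba4 and once before Crybb3. It was present in 7 of the 9 member promoters in the table, against 16.1% of all 32851 promoter windows of the same length. A core of the PU.1 site, GAGGAAG, was in 0 of the 9 and in 10.6% of all windows. Heat shock element units were searched in both orientations, the second added after seeing the data: TTCNNGAA was in the window of 1 member (Cryba1) and in 7.17% of all, and GAANNTTC in that of 1 member (Hspb1) and in 6.69% of all. The AP-1 site TGANTCA was in the windows of 2 members (Cryba2 and Crygs) and in 6.75% of all. Both strands were searched, and the AP-1 and Maf matches of Crygs overlap. Hspb1 had 2 matches of GAANNTTC, which start 117 and 97 bases upstream, and none of the other letters. Its window, chr5:135887669-135887918 (plus strand), is shown with these matches in capitals, and Cryab was not in the table.
Hspb1: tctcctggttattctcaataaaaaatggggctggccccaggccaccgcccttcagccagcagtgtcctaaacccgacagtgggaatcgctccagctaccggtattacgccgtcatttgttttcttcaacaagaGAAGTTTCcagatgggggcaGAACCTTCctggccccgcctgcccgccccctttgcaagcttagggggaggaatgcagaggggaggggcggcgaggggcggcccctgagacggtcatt
A match of letters does not show that a factor binds there.

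**Figure D1:**
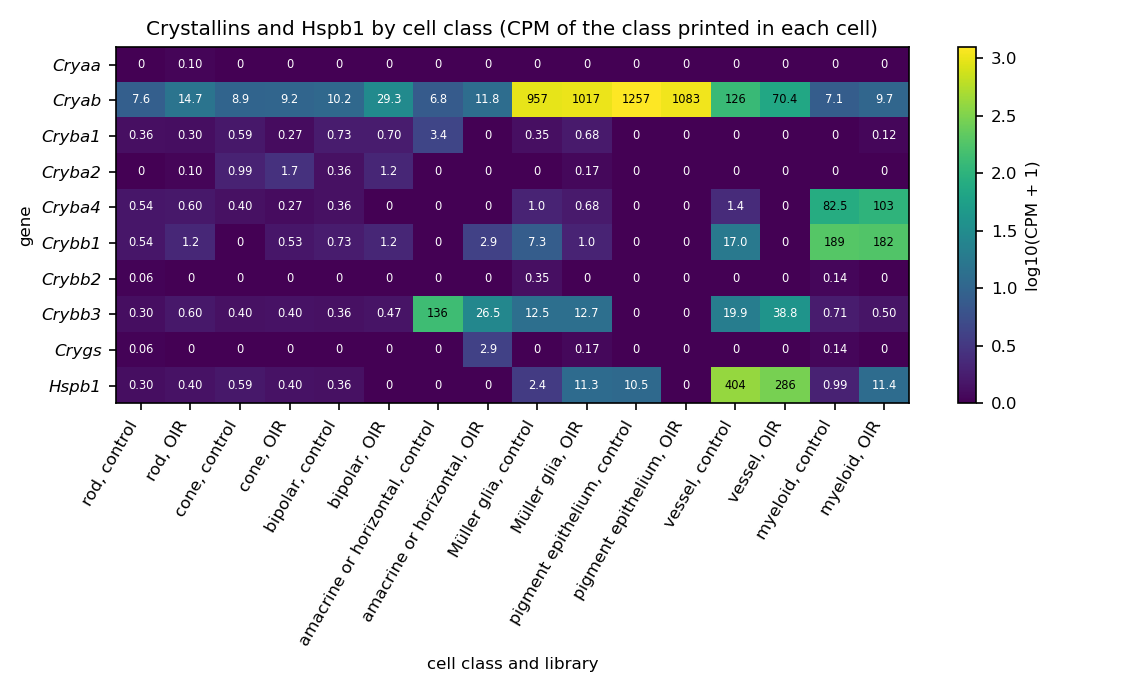
Level of each of the 10 genes (rows) in 8 cell classes of the control and OIR libraries (columns); colour is log10(CPM + 1) and the printed number is the CPM. Cryab is highest in Müller glia-like and pigment epithelium-like cells (957 to 1257 CPM), Crybb1 and Cryba4 in myeloid cells, and Hspb1 in vessel-like cells.

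Crybb1 and Cryba4, beta crystallins known as lens proteins, were myeloid transcripts in both libraries. In control myeloid cells Crybb1 had 1331 UMIs (189 CPM, 179 to 199), and OIR myeloid cells had 1466 (182 CPM, 173 to 192). These were 96.7% of all Crybb1 UMIs of the control library and 97.9% of those of the OIR library. Cryba4 had 581 UMIs in control (82.5 CPM, 75.9 to 89.5) and 825 in OIR (103 CPM, 95.6 to 110), which were 97.2% and 98.6% of its UMIs. In rod-like cells Crybb1 stood at 0.538 and 1.20 CPM and Cryba4 at 0.538 and 0.600 CPM. For Crybb1 those levels were 0.284% and 0.658% of the myeloid level, and 5 microglia genes (P2ry12, Cx3cr1, Csf1r, C1qa and C1qb) stood in rod-like cells at 0.199% and 0.486% of theirs. Rod genes in myeloid cells, a measure of free RNA, stood at 5.78% of their library level in control and 8.45% in OIR, whereas Crybb1 and Cryba4 stood there at more than 500% of theirs (515 to 534).

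Neither gene was 2-fold apart between the libraries over the whole myeloid class. On the log2 scale the ratio, OIR over control, was -0.05 for Crybb1 (-0.16 to 0.06) and 0.31 for Cryba4 (0.16 to 0.47). Of the 10 genes, 2 had at least 20 CPM in myeloid cells, and 0 of these were 2-fold apart with an interval that excluded 0. The same rule took 11.6% of the 6171 genes of that level, 5.82% being higher in OIR and 5.79% lower. The myeloid class was made of other cells in each library, however. Most control cells (688) were in a cluster led by Selplg and P2ry12, genes of resting microglia, which held 187 OIR cells. A shallow cluster led by Ftl1 and Aif1 held 160 and 276 cells, 1 led by S100a9, Hmox1, Spp1 and Mmp12 held 28 and 238, and 1 led by the border macrophage genes Pf4 and Mrc1 held 5 and 78.

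Within the Selplg-led cluster both crystallins were higher in OIR. Crybb1 was at 189 CPM (interval 178 to 200) in control cells and at 237 (216 to 259) in OIR cells, with a log2 ratio between 0.17 and 0.48 and an estimate of 0.33. For Cryba4 the levels were 81.8 (74.9 to 89.1) and 115 CPM (100.4 to 131), and the log2 ratio was 0.49 (0.26 to 0.71). Both differences are under 2-fold. In the Ftl1-led cluster Crybb1 stood at 245 CPM in each library and Cryba4 at 125 and 131, with intervals of the log2 ratio from -0.38 to 0.39 and from -0.46 to 0.62. The S100a9-led cluster had the lowest Crybb1 of the 4 clusters, at 88.6 CPM in control (58.9 to 128, 28 UMIs) and 128 in OIR (117 to 139, 552 UMIs). Its log2 ratios were 0.53 (-0.02 to 1.13) for Crybb1 and 0.77 (0.08 to 1.57) for Cryba4, which stood at 53.8 and 92.0 CPM. OIR cells of the Pf4-led cluster held Crybb1 at 265 CPM (233 to 300) and Cryba4 at 101 CPM (81.8 to 124). The 5 control cells there had 17 and 1 UMIs, and the 17 Crybb1 UMIs came from 2 cells. In the 3 clusters that had 28 or more cells on both sides, the OIR value of each gene was thus equal to or above the control value, while the whole class, in which OIR has more cells of the cluster with the lowest Crybb1, gave a ratio near 0 for Crybb1.

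**Figure D2:**
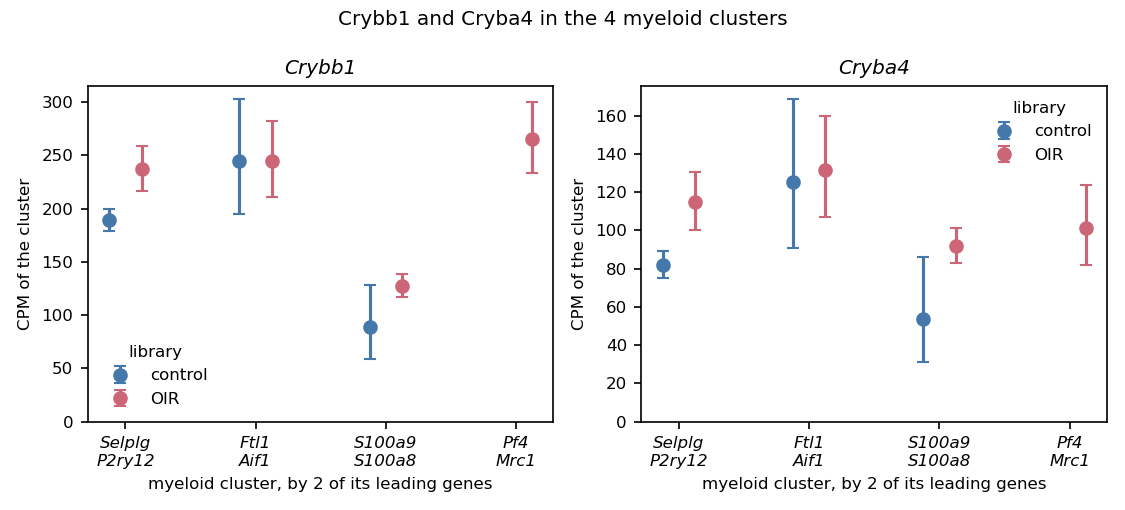
CPM of Crybb1 (left) and Cryba4 (right) in the 4 myeloid clusters, named by 2 of their leading genes, with control in blue and OIR in red; bars are 95% intervals for counting error, and the 5 control cells of the last cluster are left out. OIR lies above control in the Selplg-led cluster, and the S100a9-led cluster holds the lowest Crybb1 of either library.

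The balance of the pair also differed by cluster. Of the UMIs of both genes, those of Cryba4 made up 30.2% in control (28.0 to 32.4) and 32.6% in OIR (29.2 to 36.2) in the Selplg-led cluster. The share was 41.9% (38.7 to 45.1) in OIR cells of the S100a9-led cluster and 27.6% (23.0 to 32.7) in those of the Pf4-led cluster, and these 2 intervals do not overlap. Over the whole class it was 30.4% in control (28.3 to 32.5) and 36.0% in OIR (34.0 to 38.0).

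Crybb1 and Cryba4 were spread over many myeloid cells and were not carried by a few. Either gene was seen in 597 of the 881 cells in control and 495 of the 779 in OIR, and both were seen in 247 and 248 cells. The highest cell held 16 Crybb1 UMIs in control and 26 in OIR. With every cell thinned to the same 1500 UMIs, which left out 59 control and 96 OIR cells, 168 of 822 cells in control (20.4%, 17.7 to 23.4) and 151 of 683 in OIR (22.1%, 19.05 to 25.4) held Crybb1. Cryba4 was seen in 86 (10.5%, 8.45 to 12.8) and 100 cells (14.6%, 12.1 to 17.5). Without thinning, at median depths of 6652 and 6753 UMIs, the shares were 55.4% and 51.7% for Crybb1 and 40.4% and 43.6% for Cryba4. Thinned rod-like cells, with median depths of 1402 and 1483 UMIs, held Crybb1 in 2 of 2896 (0.0691%) and 5 of 1754 (0.285%).

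The likeness of the pair to other genes was taken over 33 pools, each being the cells of 1 cluster in 1 library where it held at least 50 cells, as the Pearson correlation of log2(CPM + 10). Crybb1 and Cryba4 had r = 0.99 with each other. Among the other genes the nearest to Cryba4 were Spi1, which encodes the myeloid transcription factor PU.1, Rac2, a small GTPase of blood cells, and Aif1, the microglia marker IBA1 (r = 0.99 each). The nearest to Crybb1 were Ltc4s, which makes leukotrienes, Gsdmd, the pore protein of pyroptosis, and Lst1 (r = 0.99 each). Pools share libraries and most are not myeloid, so these values mostly record that the genes are myeloid. The regulator Maf, which is expressed in macrophages, stood in myeloid cells at 308 CPM in control and 221 in OIR (log2 ratio -0.48, -0.57 to -0.39).

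Outside the myeloid class, Crybb1 had a second, smaller place in control Müller glia-like cells. There it had 21 UMIs (7.27 CPM, 4.50 to 11.1), each in another cell, against 6 UMIs in 5 OIR cells (1.03 CPM, 0.377 to 2.24). The log2 ratio was -2.82 (-4.42 to -1.47), at a level under 20 CPM in both libraries. In control these cells held Crybb1 at 3.85% of the myeloid level, while the 5 microglia genes stood at 0.154% and Cryba4, on 3 UMIs, at 1.26% of theirs. The 21 cells with Crybb1 held 18.2 CPM of the 5 microglia genes and the 242 without it 34.5 CPM. In vessel-like cells 12 Crybb1 UMIs were found in control, all in 1 cell of 38162 UMIs, in which the 5 microglia genes stood at 7075 CPM.

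Cryab, also called alpha B-crystallin, was a Müller glia transcript. The gene (ENSMUSG00000032060) lies on chromosome 9, 50751325 to 50756636, plus strand, and its first 1030 bases overlap Hspb2 (50751078 to 50752354), another small heat shock protein gene on the minus strand. Whether the counting used strand is not given in the sources used here, so reads in the overlap may belong to either gene. In Müller glia-like cells Cryab had 2762 UMIs in control (957 CPM, 921 to 993) and 5941 in OIR (1017 CPM, 991 to 1043). That was 75.8% and 74.4% of all Cryab UMIs of the libraries. The log2 ratio was 0.09 (0.02 to 0.15), and its sign depended on the cells used, with -0.16 under a stricter cell filter and 0.28 when the members were among the clustering genes. In this class Cryab was the 1 member of 10 with at least 20 CPM, and it was not 2-fold apart, as 8.6% of 6897 genes were (3.33% higher in OIR and 5.26% lower).

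Levels were spread over single cells, and with a median of 9 and 11 Cryab UMIs a cell this spread includes counting noise. The CPM of single Müller glia-like cells ran from 368 at the 10th percentile over a median of 945 to 2005 at the 90th in control, and from 304 over 986 to 2782 in OIR. Almost every cell held the transcript: 256 of 263 in control and 387 of 402 in OIR, and after thinning to 1500 UMIs 193 of 254 (76.0%, 70.2 to 81.1) and 271 of 366 (74.0%, 69.2 to 78.5). Müller glia-like cells with a UMI of Lcn2 or Serpina3n, genes of reactive glia, numbered 5 in control and 118 in OIR. In OIR they held Cryab at 1076 CPM (1036 to 1116), and the 284 cells without either gene at 970 CPM (937 to 1005), at median depths of 19374.5 and 8841.5 UMIs.

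The level of Cryab beside the Müller glia markers did differ. The summed level of 10 markers without Apoe (Rlbp1, Glul, Slc1a3, Aqp4, Kcnj10, Dkk3, Car14, Clu, Sox9 and Vim) in these cells was 17507 CPM in control and 9217 in OIR, while Cryab stood at nearly the same level. Rod genes in Müller glia-like cells stood at 57.1% of their library level in control and 98.6% in OIR. Taking off the Cryab that this would bring gave a log2 ratio of -0.12 (-0.19 to -0.05). The 3 non-member genes nearest to Cryab over the 33 pools were Fxyd1, a regulator of the sodium pump (r = 0.97), Snhg18 (r = 0.97) and Pdpn, which encodes podoplanin (r = 0.95).

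Pigment epithelium-like cells held Cryab at the level of Müller glia-like cells. It had 120 UMIs in 28 control cells (1257 CPM, 1042 to 1503) and 174 in 42 OIR cells (1083 CPM, 928 to 1257). Their intervals overlap. It was seen in 25 of the 28 and 38 of the 42 cells. Vessel-like cells held 89 and 29 Cryab UMIs (126 CPM, 101 to 155, and 70.4, 47.1 to 101), and 2 of the 47 control cells held at least 50% of them. Split by marker, the 12 control cells with at least as many pericyte as endothelial marker UMIs held Cryab at 603 CPM (472 to 758) and the 35 others at 27.4 CPM (15.7 to 44.5). In OIR the 7 pericyte-leaning cells held 110 CPM (72.4 to 160) and the 9 others 2 UMIs. Hspb2, the overlapping gene, was likewise high in the pericyte part, at 355 CPM in control (43 UMIs) and 16.3 in OIR (4 UMIs).

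In neurons Cryab was low, and it is given beside other Müller glia genes in the same cells, a measure of free Müller glia RNA. Control rod-like cells had 127 UMIs (7.58 CPM, 6.32 to 9.02) and OIR ones 147 (14.7 CPM, 12.4 to 17.3), which makes the log2 ratio 0.95 (0.60 to 1.31). Those levels are 0.793% and 1.44% of the Müller glia level, and the 10 Müller glia markers stood in rod-like cells at 0.658% and 1.60% of theirs. With Cryab in the proportion of these markers taken off, 21.5 UMIs were left in control and less than 0 in OIR, so no ratio could be given. In cone-like cells Cryab stood at 8.90 and 9.18 CPM (log2 ratio 0.04, -0.52 to 0.62), which is 0.931% and 0.903% of the Müller glia level against 1.11% and 2.08% for the markers. The markers were level in cone-like cells, at 194 and 191 CPM, and their percentage is higher in OIR because their Müller glia level is lower there. The cone ratio rested on the choice of cells: it was 1.88 with doublets kept and 1.11 under a coarser clustering. With doublets kept, a cluster of 61 and 186 cells that also carried Müller glia markers (median 30829 UMIs) was named cone. Under the coarser clustering the deep unnamed cluster no longer stood apart, and cone-like cells numbered 332 and 679. With cells over 20000 UMIs left out the ratio was 1.91. The part of Müller glia RNA in these ratios was not tested.

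Bipolar-like cells were the class in which Cryab was more than 2-fold apart at 20 CPM or more. The 28 control UMIs gave 10.2 CPM (6.76 to 14.7) and the 125 OIR UMIs 29.3 CPM (24.4 to 34.9), and the log2 ratio was 1.52 (0.92 to 2.17), or 2.88-fold. Cryab was the 1 member of 10 that reached 20 CPM there, and 2.52% of 7174 genes of that level were 2-fold apart (1.41% higher in OIR and 1.12% lower). The 10 Müller glia markers were level, at 191 and 189 CPM, which is 1.09% of their Müller glia level in control and 2.05% in OIR, beside 1.06% and 2.88% for Cryab. With Cryab in that proportion taken off, 36.1 UMIs were left in OIR and less than 0 in control. The UMIs lay mostly in the bipolar cluster led by Gsg1, Scgn and Neurod4, with 28 in 205 control cells (11.9 CPM) and 114 in 244 OIR cells (38.7 CPM). The cluster led by Pcp2 and Trpm1, genes of ON bipolar cells, had 0 in 63 and 11 in 231 cells (8.29 CPM). A UMI was seen in 69 OIR bipolar-like cells, with 8 in the highest cell. These 69 cells held 236 CPM of the Müller glia markers and the other 406 cells 171 CPM, at median depths of 14585 and 6001.5 UMIs. The shares of bipolar-like cells with Cryab depended on the depth: they were 6.34% in control and 14.5% in OIR without thinning, 1.90% (0.620 to 4.38) and 5.23% (3.38 to 7.68) at 2500 UMIs, and 1.88% (0.613 to 4.33) and 1.93% (0.887 to 3.63) at 1500 UMIs, on 5 and 9 cells. Rod genes, as the other measure of free RNA, stood in bipolar-like cells at 25.6% and 19.5% of their library level, above Cryab at 10.8% and 15.5% of its own. Taking off free RNA in the proportion of the rod genes therefore left no Cryab in either library, so it could not be called and no ratio can be read from this step. Cryab was also not called at 3-fold in place of 2-fold.

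**Figure D3:**
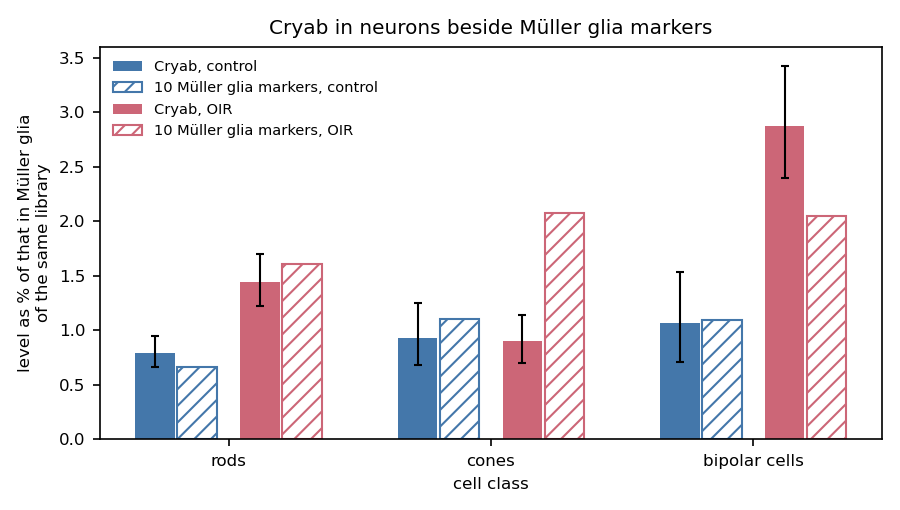
Cryab (filled bars, with 95% intervals for counting error) and 10 summed Müller glia markers (hatched bars) in rods, cones and bipolar cells, each as a percentage of its level in the Müller glia-like cells of the same library. Cryab lies near the markers in rods of both libraries, below them in OIR cones (0.903% against 2.08%) and above them in OIR bipolar cells (2.88% against 2.05%). The Müller glia level of the markers is 17507 CPM in control and 9217 in OIR, which raises their OIR percentages.

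Rod-like cells fell into 8 clusters, and Cryab did not mark the one that belonged to OIR. The cluster led by E2f6, Fgf2 and Edn2, stress genes of photoreceptors, held 96 control and 1609 OIR cells, and its OIR cells had Cryab at 8.02 CPM (5.55 to 11.2). OIR rods of the other clusters stood at 19.6 CPM (16.2 to 23.6) and control rods of those clusters at 7.61 (6.34 to 9.06), and without the Fgf2-led cluster the log2 ratio was 1.36 (0.99 to 1.74). The part of Müller glia RNA in this ratio was not tested. Over all rod-like cells, those with Cryab held 250 CPM of the 10 Müller glia markers in control and 172 in OIR. Those without it held 107 and 146 CPM. Median depths were 5360 and 5554 UMIs with Cryab, and 1397 and 1460.5 without. Rods of the deepest rod cluster, led by Pde6g and Gngt1, held the most, at 19.6 CPM in control (13.1 to 28.1) and 44.5 in OIR (32.4 to 59.5). The deep unnamed cluster, which also carried Müller glia markers, held 420 Cryab UMIs in control (136 CPM, 123 to 149) and 1417 in OIR (258 CPM, 245 to 272). Myeloid cells held 50 and 78 Cryab UMIs (7.10 and 9.69 CPM, log2 ratio 0.45, -0.08 to 0.99), with 15 UMIs in the highest cell of each library. With doublets kept this ratio was -0.58.

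Hspb1, also known as HSP25 in mice, is a chaperone of the actin cytoskeleton that is induced by heat shock factors. The gene (ENSMUSG00000004951) lies on chromosome 5, 135887919 to 135889563, plus strand. In control it was a vessel transcript, with 285 of its 336 UMIs in 47 vessel-like cells (404 CPM, 359 to 454). The 16 OIR vessel-like cells held 118 of the 383 UMIs of their library (286 CPM, 237 to 343). In control the pericyte part of the class stood at 1024 CPM (851 to 1220) and the endothelial part at 276 (235 to 322). In OIR these parts were at 309 (244 to 387) and 252 CPM (182 to 341). A few cells hold most of these counts: 4 of the 47 control cells and 2 of the 16 OIR cells held at least 50%, and the highest cell held 57 and 35 UMIs.

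In OIR, Hspb1 was also found in myeloid and Müller glia-like cells. The 7 UMIs of control myeloid cells gave 0.994 CPM (0.400 to 2.05) and the 92 of OIR ones 11.4 CPM (9.22 to 14.0), and the log2 ratio was 3.52 (2.42 to 4.88). Müller glia-like cells had 7 (2.42 CPM, 0.975 to 4.996) and 66 (11.3 CPM, 8.74 to 14.4), with a log2 ratio of 2.22 (1.10 to 3.59). Both lie under 20 CPM in both libraries, so they are not among the genes of the counts above. Rod-like cells had 5 and 4 UMIs (0.299 and 0.400 CPM), cone-like cells 3 and 3, and bipolar-like cells 1 and 0. In these 3 neuron classes the level was thus under 0.6 CPM.

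The OIR counts of Hspb1 came from few cells. In the myeloid class 29 of 779 OIR cells held a UMI, the 10 highest held 75.0% of the UMIs, and the highest held 17. The Selplg-led cluster had 7 UMIs in control and 2 in OIR (1.10 and 0.994 CPM). The S100a9-led cluster had 0 UMIs in 28 control cells, which allows up to 9.50 CPM (3 counts), and 51 UMIs in 21 of 238 OIR cells (11.8 CPM, 8.78 to 15.5), a difference not detectable at the depth of the 28 control cells. The Ftl1-led cluster had 0 in 160 control cells, which allows up to 8.73 CPM (3 counts), and 22 UMIs in 5 OIR cells (28.6 CPM, 17.9 to 43.4). The OIR level is 3.28 times that limit. The interval of the ratio, which uses the control count of 0 and not the limit, starts at 2.45-fold. The 17 UMIs of the Pf4-led cluster in OIR came from 1 cell. Without the 1% of cells with most Hspb1, 0 UMIs were left in control myeloid cells and 27 in OIR. The 29 OIR cells held 27.7 CPM of 13 endothelial and pericyte markers and the other 750 cells 31.1 CPM. In control the 3 cells with Hspb1 held 157 CPM of them, all in 1 cell, and the other 878 cells 21.1 CPM.

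Among Müller glia-like cells, 24 of 402 OIR cells held Hspb1, and 10 of them held 78.8% of the UMIs, with 15 in the highest. These 24 cells held 729 CPM of the vessel markers and the other 378 cells 608 CPM, and in control the values were 959 and 926 CPM. Cells with and without a UMI of Lcn2 or Serpina3n had Hspb1 at 11.6 CPM (7.86 to 16.6) and 11.0 CPM (7.72 to 15.3) in OIR. The ratio in Müller glia-like cells depended on how the class was set. With classes taken from marker scores of single cells it was -0.90, on 300 control and 280 OIR UMIs. These scores have no vessel class, so the vessel-like cells, which held 285 and 118 Hspb1 UMIs, were placed in other classes. As the whole control library had 336 Hspb1 UMIs, the 300 include UMIs of vessel-like cells. Under a stricter cell filter 0 UMIs were left in 29 control cells and 23 in 158 OIR cells. The deep unnamed cluster held 27 and 100 UMIs (8.71 and 18.2 CPM), in 9 and 18 cells. Its cells with Hspb1 held 285 CPM of the vessel markers in control and 420 in OIR, and its cells without it 155 and 201 CPM. The part of vessel RNA in these Hspb1 counts was not tested. The genes nearest to Hspb1 over the 33 pools, which leave out the vessel-like cells since each library has fewer than 50, were Ifitm2 (r = 0.84), Lgals1 (r = 0.81) and Tagln2 (r = 0.78).

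**Figure D4:**
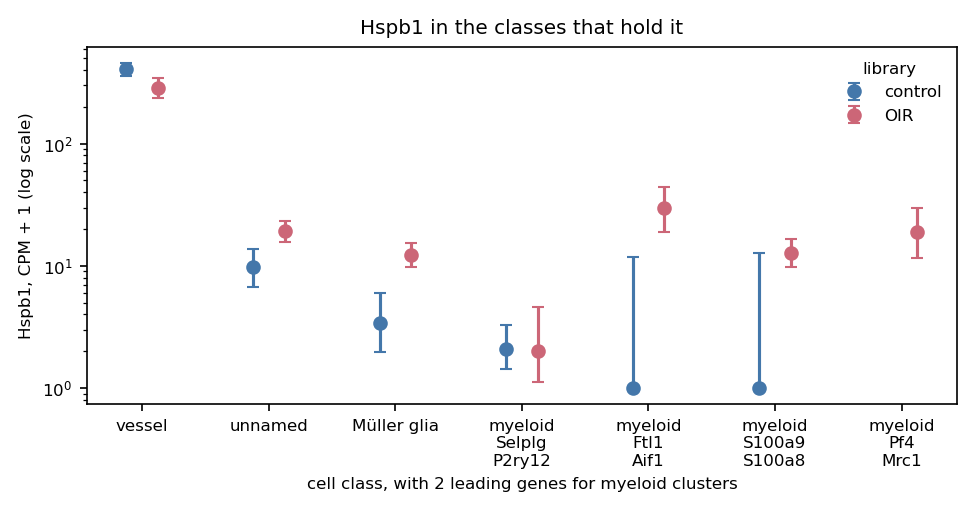
Hspb1 as CPM + 1 on a log axis in vessel-like, unnamed and Müller glia-like cells and in the 4 myeloid clusters, with control in blue and OIR in red and 95% intervals for counting error. Control lies at 404 CPM in vessel-like cells, and in the Selplg-led myeloid cluster the values are 1.10 and 0.994 CPM. In the Ftl1-led and S100a9-led clusters control has 0 UMIs, which allows 8.73 and 9.50 CPM, and OIR lies at 28.6 and 11.8 CPM.

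Crybb3 was rare in the libraries as a whole, with 105 UMIs in control and 117 in OIR. In control its highest level was in amacrine- or horizontal-like cells, inhibitory interneurons, with 40 UMIs (136 CPM, 97.2 to 185), and in OIR these cells held 9 (26.5 CPM, 12.1 to 50.4). All 40 came from 6 of 77 control cells and the 9 from 2 of 32 OIR cells, so each library's level rests on a few cells. The 6 control cells held 51 UMIs of Gad1 and 48 of Gad2, which make the transmitter GABA, and 0 of the glycine transporter Slc6a9, whereas the other 71 cells held 36, 15 and 60. Of the other amacrine markers, the 6 cells held 0 UMIs of Tfap2b and 3 of Tfap2a, and the 71 held 113 and 23. Pax6 and C1ql2 had 86 and 37 UMIs in the 6 cells and 87 and 43 in the 71. The 2 OIR cells held 4 UMIs of Gad1 and 158 of Calb1, a marker of horizontal cells, of which the 6 control cells had 0. The other 30 OIR cells held 27 and 666. Of Tfap2b and Pax6 the 2 OIR cells held 41 and 36 UMIs, and the other 30 held 167 and 122. Müller glia-like cells held 36 and 74 Crybb3 UMIs at the same level (12.5 CPM, 8.73 to 17.3, and 12.7 CPM, 9.94 to 15.9; log2 ratio 0.02, -0.57 to 0.64), in 21 and 46 cells. Vessel-like cells held 14 and 16 (19.9 and 38.8 CPM), with overlapping intervals. Rod-like cells had 5 and 6 UMIs (0.299 and 0.600 CPM). The genes nearest to Crybb3 over the 33 pools were Rbfox2 (r = 0.97), Tbx3 and C1ql1 (r = 0.95 each), and this rests on the 1 control pool of amacrine- or horizontal-like cells.

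**Figure D5:**
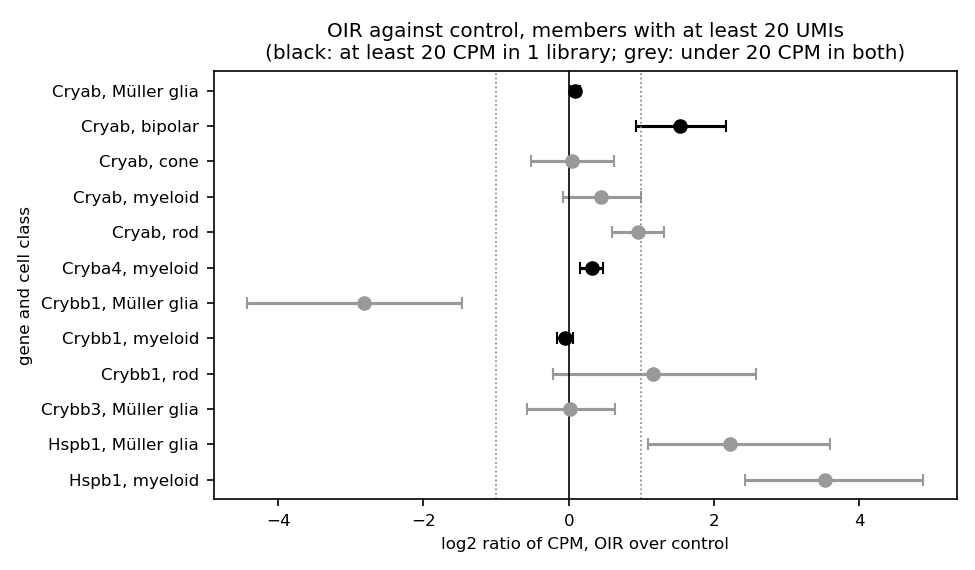
Log2 ratio of CPM, OIR over control, with 95% intervals for counting error, for each gene and class with at least 20 UMIs in both libraries together; black points have at least 20 CPM in 1 library and grey points less. Crybb1, Cryba4 and Cryab lie near 0 in the cells that hold most of them, Cryab in bipolar cells lies at 1.52, Hspb1 in myeloid and Müller glia-like cells at 3.52 and 2.22, and Crybb1 in Müller glia-like cells at -2.82.

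The remaining 5 crystallins were close to absent. Cryaa, the partner of Cryab in the lens, had 0 UMIs in control, which allows up to 0.0775 CPM (3 counts), and 1 in OIR. Crybb2 had 3 and 0 UMIs and Crygs 2 and 3. Cryba1 (ENSMUSG00000000724, chromosome 11) had 14 and 13 UMIs, each in another cell and spread over rods, cones, bipolar cells and Müller glia. Cryba2 (ENSMUSG00000006546, chromosome 1) had 6 and 23, of which cone-like cells held 5 and 13 (0.989 and 1.73 CPM, log2 ratio 0.81, -0.77 to 2.65) and bipolar-like cells 1 and 5.

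Genes of the lens were likewise near 0. Of 12 lens genes that are not crystallins 5 were at 0 in each library, among them the lens fibre gene Mip, and all 12 together had 101 UMIs in control and 63 in OIR. Bfsp2, a lens filament gene, had 68 and 27 of these, mainly in Müller glia-like cells (46 and 9 UMIs, 15.9 and 1.54 CPM) and pigment epithelium-like cells (11 and 9, 115 and 56.0 CPM); it was named after its values were seen. Of 7 other gamma crystallins, Crygn had 10 and 22 UMIs and 4 were at 0 in each library.

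Other members of the chaperone system were counted from lists. Among 5 other small heat shock protein genes 1 was measured at 20 CPM in each of the 5 classes with at least 200 cells a library. It was Hspb3 in myeloid cells and Hspb6 in the other 4 classes. Hspb6 was a photoreceptor transcript, at 102.6 and 90.4 CPM in rod-like cells and 216 and 253 CPM in cone-like cells. In Müller glia-like cells it had 43.3 and 79.1 CPM (log2 ratio 0.87, 0.58 to 1.17). Rod genes stood in those cells at 57.1% of their library level in control and 98.6% in OIR. The part of free rod RNA in this Hspb6 was not tested. Hspb3 in myeloid cells stood at 23.6 and 11.2 CPM (-1.08, -1.46 to -0.70).

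Of 17 chaperones of the heat shock response, 16 were measured in Müller glia-like cells, with 1 that was 2-fold higher in OIR, 0 lower and a median log2 ratio of 0.00 (all genes, -0.03). The 1 was Bag3, a partner of small heat shock proteins, at 10.0 and 40.4 CPM (log2 ratio 2.01, 1.45 to 2.62). In myeloid cells 14 were measured, 0 stood higher and 1 lower, with a median of 0.09 (all genes, -0.10), the lower one being the co-chaperone Dnajb1 at 152 and 69.6 CPM (-1.13, -1.28 to -0.98). Rod-like and cone-like cells had 16 measured and bipolar-like cells 14, with 0 at least 2-fold apart and medians of -0.15, -0.00 and -0.05. Among the regulators, Maf (73.4 and 29.3 CPM, log2 ratio -1.33) and Sox2 (340 and 169 CPM, -1.01) were at least 2-fold lower in OIR Müller glia-like cells, of 6 measured there. The median of the list in this class was -0.71 (all genes, -0.03), and 5.26% of all genes measured there were 2-fold lower. The 10 summed Müller glia markers were also lower in OIR, at 17507 CPM in control and 9217 in OIR. Whether the regulators follow them was not tested. In rod-like cells Cryab and the other members had less than 20 CPM in both libraries, as they had in cone-like cells, so 0 of 10 were counted. Of 6577 genes at that level in rod-like cells 1.47% were 2-fold apart (1.28% higher in OIR and 0.198% lower), and of 6513 in cone-like cells 1.01% (0.752% and 0.261%).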

How the data were processed

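Libraries of CD11b-selected retinal cells, 1 per group, were analysed. The authors deposited UMI counts for each gene in each barcode, made with Cell Ranger 3.0.2 on build mm10, per the submitters' processing notes; the deposited barcode and gene tables hold other values (names). For the library kit, strand setting and annotation release nothing is stated in the labels. Of the 31053 gene identifiers 30934 were found in GENCODE M21 (GRCm38), which gave the gene positions, and of identifiers with 1 symbol (36 symbols) only the most abundant was kept.

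Kept barcodes had 500 or more genes and no more than 10% mitochondrial UMIs (9454 and 6516). Scrublet called 0 and 1 doublets at its automatic threshold, so the top-scoring 0.8% per 1000 barcodes were removed instead (938 and 424). Cells were clustered with scanpy 1.11.5 (2000 variable genes without the members and the listed genes, 30 components, 20 neighbours, Leiden resolution 1). Clusters were named by markers, with a mean log2 fold of at least 0.5 and 3 markers detected in 10% of cells, and stayed unnamed where a second class came within 0.3; these naming limits, and the pooling of microglia, macrophages, monocytes and neutrophils as myeloid and of endothelial cells and pericytes as vessel, were set with the data at hand.

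UMIs were summed per class and library. CPM has an exact Poisson interval, a share a Clopper-Pearson interval and the log2 ratio an exact conditional binomial interval, all at 95% and for counting error only. A count of 0 was set to 3 for the value of a ratio, while its interval used the 0. A gene was called 2-fold apart if it reached 20 CPM in either library, its ratio was 2-fold or more and the interval of that ratio left out 0. With Poisson counts simulated from the myeloid sums over 5706 genes, the rule called 50 of 50 genes made 3-fold higher, 0 of 50 made 1.5-fold higher and 0 of 5506 left as they were. These counts hold counting error only, as the interval assumes, and no variation between cells, animals or libraries. They therefore do not give the rate of false calls between 2 real libraries.

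All 10 members are described, and a few other genes are not reported here. Of each list, up to 3 genes a class with the largest ratio whose interval excludes 0 were open to naming, and 3 genes nearest to each member over pools of at least 50 cells. The members and lists were chosen with earlier results of these data known. Alternatives were 2 other scalings, a stricter filter (1000 genes, 5% mitochondrial), doublets kept, classes from scores per cell, the members among the clustering genes, resolution 0.5, the 1% of cells with most UMIs left out, free RNA taken off, folds of 1.5 and 3, and thinning to 1000 or 2500 UMIs. Taking off Müller glia RNA, leaving out cells over 20000 UMIs and leaving out the Fgf2-led rod cluster were added after seeing the data.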

Additional observations from a re-analysis of the deposited data

How the results depend on the processing

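No paired analysis was possible because each group is 1 library. Of 111 recomputed log2 ratios, 92 stayed within the interval of the reported value, 18 moved outside it and 1 was counted as reversed. This was Hspb1 in Müller glia-like cells, at -0.90 with classes from marker scores per cell. Those scores have no vessel class, and vessel-like cells held most of the control Hspb1. Signs also changed elsewhere. Cryab kept its sign in 8 of 10 alternatives in Müller glia-like cells and in 8 of 9 each in myeloid and cone-like cells. Crybb1 in myeloid cells kept it in 7 of 10, and Crybb3 in Müller glia-like cells in 6 of 10. Of these, only Cryab in Müller glia-like cells had a reported interval that excluded 0. The count of members at least 2-fold higher in OIR moved from 0 to 1 in cone-like cells (Cryab) with doublets kept, with classes from marker scores, with the members among the clustering genes and at resolution 0.5. It moved from 0 to 1 in rod-like cells (Cryab) with classes from marker scores and in Müller glia-like cells (Hspb1) with doublets kept. In bipolar-like cells it moved from 1 to 0 with rod-gene free RNA taken off, which left no Cryab to call, and at 3-fold in place of 2-fold. The other 110 recomputed counts stayed within 1.5 times the reported count. Shares of cells moved in 18 of 40 recomputed values, CPM in 9 of 20 and percentages of the library level in 25 of 40.

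Over its alternatives, Cryab ran from 0.69 to 1.71 in rod-like cells, from 1.47 to 4.12 in bipolar-like cells (the highest on 1 control UMI in 36 cells under the stricter filter), from -0.02 to 1.91 in cone-like cells and from -0.16 to 0.28 in Müller glia-like cells. In myeloid cells Cryba4 ran from 0.24 to 0.40, Crybb1 from -0.12 to 0.16 and Hspb1 from 2.37 to 4.65. The stricter filter kept 11.0% of control but 39.3% of OIR Müller glia-like cells. Ratios with 0 UMIs in a group (4) were left out. Depth limits the 5 rarest members, which had under 30 UMIs in each library.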
